A study of Mus musculus with 13 samples.

Results

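The genes described here are the D-type and E-type cyclins that drive cells from G1 into S phase, their kinase partners, and the proteins that hold this step back. The set was chosen by gene symbol and holds 10 genes, Ccnd1, Ccnd2, Ccnd3, Ccne1, Cdk4, Cdk6, Cdkn1a, Cdkn1b, Rb1 and E2f1, of 29002 genes with a value in all the libraries. RNA sequencing was done on hearts of wild-type FvB mice, with the atria removed. Whole ventricles were taken at embryonic day 17 (E17) and at postnatal days (PN) 1, 10, 28 and 90, with 1 library per age. Cardiomyocytes and cardiac fibroblasts were each isolated from neonatal and from later postnatal hearts, with 2 libraries in each of the 4 groups.

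The neonatal cardiomyocyte libraries were labelled PN1-2 and PN1, and these cells were cleared of attaching cells by preplating. The later cardiomyocyte libraries, PN30 and PN67, came from Langendorff-perfused hearts. The fibroblast libraries were titled PN1-3 and PN1-2 (neonatal, with an age tag of PN1 for both) and PN28 and PN60 (later), and came from digestion and preplating. Neonatal and later cardiomyocytes therefore differed in isolation method as well as age, and the parts of age and method cannot be told apart. The later groups each join 2 ages. RNA of the fibroblasts was extracted with another column kit than that of the cardiomyocytes and ventricles. No label gave the number of animals behind a library. In the cells, p-values measure the spread between libraries within groups, which may in part be technical. For each gene this spread was pooled over all 4 groups, so libraries of either cell type also bear on the p-values of the other. In the later groups that spread includes the difference in age. For the ventricle slope, p-values measure the scatter of single libraries about a straight line over the stages.

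D-type cyclins bind CDK4 and CDK6, and these kinases phosphorylate the retinoblastoma protein RB. RB that is not phosphorylated holds E2F factors such as E2F1 in check, and cyclin E with CDK2 completes its phosphorylation as cells commit to S phase. The inhibitors p21 (Cdkn1a) and p27 (Cdkn1b) bind cyclin-CDK complexes, and p21 is a classical target of p53. Cardiomyocytes of the mouse divide before birth and leave the cell cycle in the first weeks after it, while cardiac fibroblasts keep the capacity to divide.

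RefSeq promoter windows (build GRCm38.p6, 250 bases before to 50 bases after a gene start) were found for 7 of the 10 genes, in 9 windows. The Cdk4 and Cdkn1a windows are shown because they hold the binding letters of MYC and p53, factors whose own RNA levels are given with those of Cdkn1a. The capitals in the Cdk4 promoter, chr10:127063285-127063584 on the plus strand, mark CACGTG, the E-box that reads the same on both strands.
Cdk4: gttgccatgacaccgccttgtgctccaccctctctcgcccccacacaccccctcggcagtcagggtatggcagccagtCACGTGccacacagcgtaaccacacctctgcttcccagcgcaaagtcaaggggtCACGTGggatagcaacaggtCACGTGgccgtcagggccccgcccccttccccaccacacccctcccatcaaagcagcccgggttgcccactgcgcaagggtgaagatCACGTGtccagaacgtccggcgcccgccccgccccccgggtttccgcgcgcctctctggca
This window held 4 E-boxes, starting at positions -172, -118, -98 and -11 from the gene start. Among the other member windows, that of Cdk6 held 1 E-box, at position -220, and the rest held none. Of 32851 promoters, 7.15% held at least 1 CACGTG and 8 promoters held at least 4. The capitals in the upstream Cdkn1a promoter, chr17:29090729-29091028 on the plus strand, mark a pair of CATG cores with 6 bases between them, a pattern that reads the same on both strands and forms the core of the p53 binding pattern.
Cdkn1a: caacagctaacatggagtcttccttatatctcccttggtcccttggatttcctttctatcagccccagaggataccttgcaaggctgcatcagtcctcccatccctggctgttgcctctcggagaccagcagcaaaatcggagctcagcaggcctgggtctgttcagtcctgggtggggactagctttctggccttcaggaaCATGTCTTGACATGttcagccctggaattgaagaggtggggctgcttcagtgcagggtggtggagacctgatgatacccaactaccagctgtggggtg
The pair began at position -48 from that gene start, and 0.712% of all promoters held such a pair. No other member window, including the second Cdkn1a window at chr17:29093519-29093818, held one. A match of letters describes the window and is not a measured binding site.

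Levels are given as FPKM (fragments counted per unit of transcript length and of library size), summed over the transcripts of a gene and scaled by 1 factor per library, separately for the 5 ventricle and the 8 cell libraries. Ventricle libraries were made with ribosomal RNA depletion and a different library kit from the cell libraries, so that levels set across both kinds carry the kit as well as the tissue. Changes are differences of log2(FPKM + 1), which understate the change of low genes, and a gene was called when its adjusted p was below 0.05 (limma, Benjamini-Hochberg adjustment over all genes tested). Summed cardiomyocyte markers were 12827 and 11877 FPKM in neonatal and 45944 and 44819 FPKM in later cardiomyocytes, where 9 of 9 rose, and summed fibroblast markers were 2384 to 2991 FPKM in the fibroblast libraries. Set against neonatal cardiomyocytes, the median level of 9 cardiomyocyte markers was 10.4% in the PN1-3 and 8.84% in the PN1-2 fibroblasts. Set against later cardiomyocytes, it was 0.0645% and 0.0623% in the PN28 and PN60 fibroblasts. The 8 fibroblast markers had medians between 7.42% and 14.4% of the fibroblast level across the 4 cardiomyocyte libraries. Summed erythroid markers were 15379 and 20443 FPKM in neonatal cardiomyocytes against 1103 and 712 in later ones. Summed endothelial markers were 1243 and 1477 FPKM in neonatal cardiomyocytes against 401 and 434 in later ones (9 of 10 fell), and 605 and 717 FPKM in neonatal fibroblasts against 429 and 410 in later ones (6 of 10 fell). Summed macrophage and leukocyte markers were 94.5 and 121 FPKM in neonatal cardiomyocytes against 360.3 and 370 in later ones (7 of 11 rose), and 137 and 271 FPKM in neonatal fibroblasts against 1251 and 1016 in later ones (10 of 11 rose). Summed mesothelial markers were 17.2 and 29.8 FPKM in neonatal fibroblasts against 1.76 and 5.44 in later ones (5 of 6 fell). These sums changed between the same groups as the genes below, and their part in the results was not tested. In bulk RNA, fewer cells of a type and less RNA per cell cannot be told apart.

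**Figure D1:**
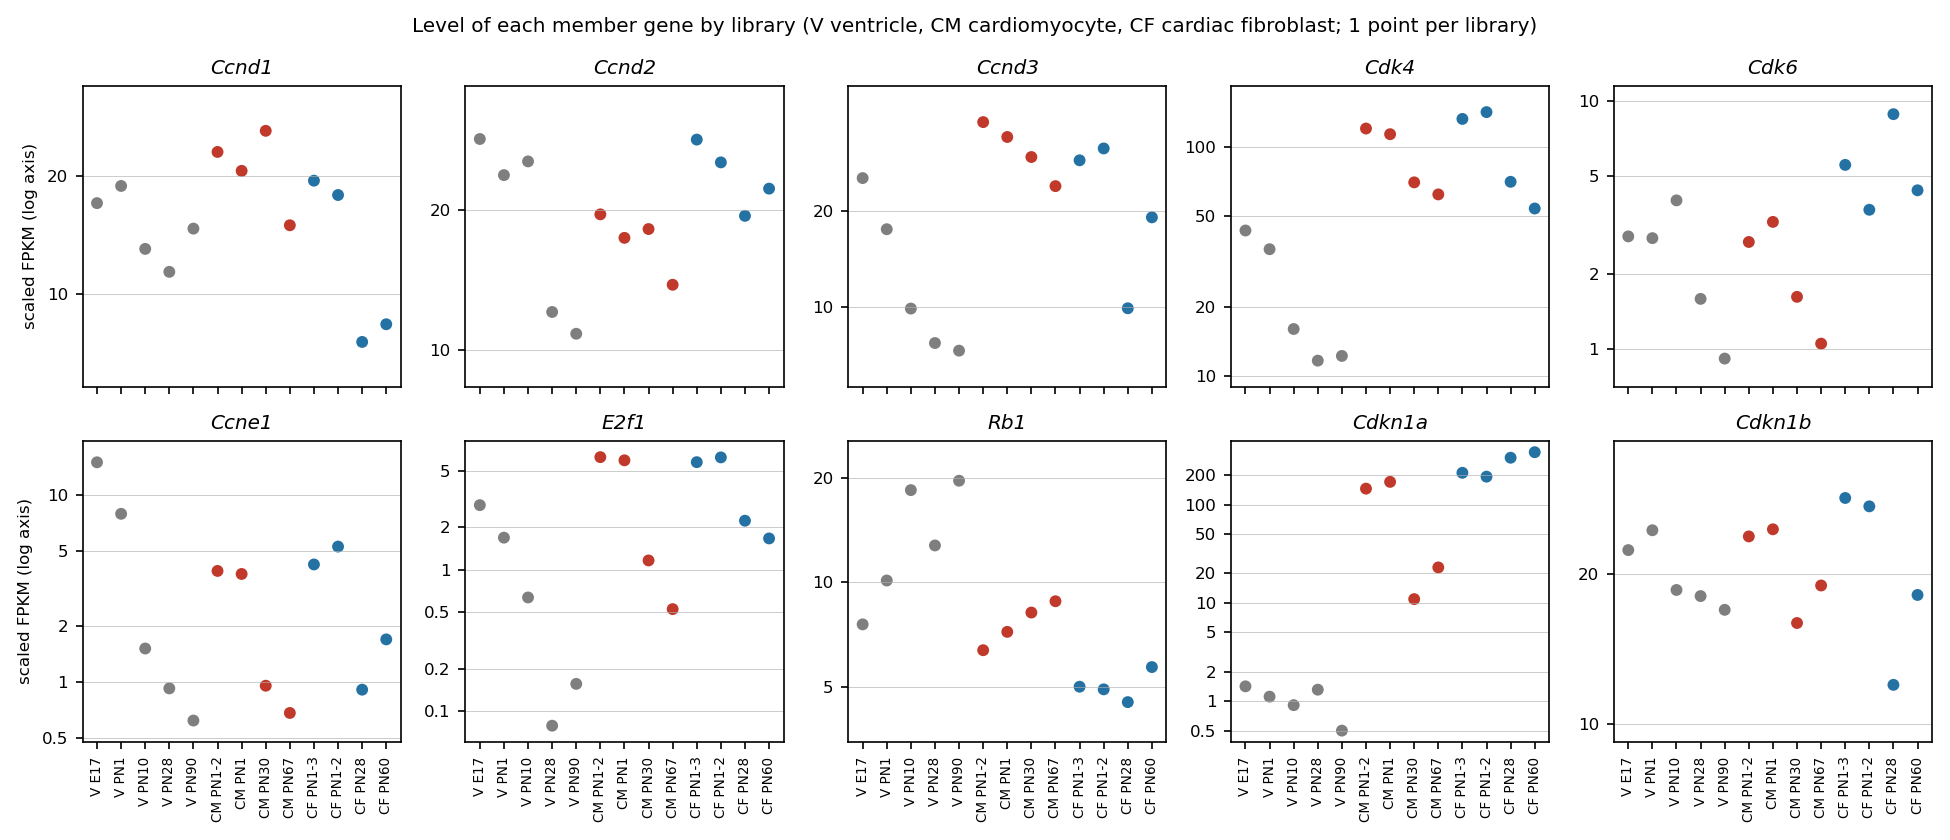
Scaled FPKM of the 10 genes in each of the 13 libraries, with 1 panel per gene, a log vertical axis, and grey, red and blue points for ventricle (V), cardiomyocytes (CM) and fibroblasts (CF). Cdkn1a stayed below 1.5 FPKM in all 5 ventricle libraries and lay between 11.0 and 345 FPKM in the isolated cells, while Ccne1 and E2f1 were lower in every later library than in the neonatal libraries of the same cell type.

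The CDK inhibitor p21 gave the widest range of the set. Cdkn1a (ENSMUSG00000023067, mm9 chromosome 17, 29227924 to 29237667) stood at 147 and 172 FPKM in the PN1-2 and PN1 cardiomyocytes and at 11.0 and 23.0 FPKM in the PN30 and PN67 cardiomyocytes. It stood at 213 and 194 FPKM in the neonatal fibroblasts and at 303 and 345 FPKM in the PN28 and PN60 fibroblasts. In cardiomyocytes the later libraries were both far below the neonatal ones, and in fibroblasts both were above. In cardiomyocytes the mean went from 159 ± 17.9 (SD, n = 2) to 17.0 ± 8.55 FPKM, a 9.36-fold fall (log2 change -3.24, SE 0.29, adjusted p = 5.05e-05). In fibroblasts the change was 0.67 (SE 0.29), with an adjusted p of 0.102. The changes of the 2 cell types differed by -3.90 on the log2 scale (SE 0.41, adjusted p = 0.000182). Without either later cardiomyocyte library, and with the 4 fibroblast libraries fitted alone, the fibroblast change passed the threshold as a rise (adjusted p = 0.0084, 0.0084 and 0.0206), while the cardiomyocyte fall was called in all 20 alternatives.

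In the ventricle the same gene was scarcely present. Cdkn1a stood at 1.41, 1.11, 0.908, 1.31 and 0.499 FPKM from E17 to PN90, with no called slope (-0.12 per stage, SE 0.07, adjusted p = 0.193). The 5 values span a range of less than 1 FPKM, whereas the lowest isolated cell library was at 11.0 FPKM. Cdkn1a ranked last of the 10 genes at E17 and PN1. Against the PN1 ventricle the neonatal cardiomyocyte mean was 144-fold higher on the plain FPKM scale, and the neonatal fibroblast mean was 183-fold higher. Ranked by the difference of log2(FPKM + 1), which was 6.25 and 6.60, Cdkn1a was 7 of 12441 and 7 of 12678 genes. Against the PN28 and PN90 ventricles the later cardiomyocytes were 18.8-fold and the later fibroblasts 359-fold higher. Immediate early genes, which are switched on within minutes of a stimulus, stood beside it: Fos was at 0.917 FPKM in the PN1 ventricle and at 286 and 272 FPKM in neonatal cardiomyocytes, the largest difference of log2(FPKM + 1) among the 12441 genes (7.19). Jun was at 15.7 FPKM in the PN1 ventricle and at 112 and 109 FPKM in those cells. In later cardiomyocytes the means of Fos and Jun were 138 and 58.0 FPKM, against 1.15 and 15.1 FPKM in the PN28 and PN90 ventricles. For fibroblasts the Fos means were 132 FPKM in neonatal and 264 FPKM in later cells, and the Jun means 98.9 and 106 FPKM. Tissue, isolation, kit and separate scaling all differ between these libraries and cannot be told apart, so the ratios carry no test.

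The p53 and MYC genes followed Cdkn1a in part. Trp53, which encodes p53, stood at 18.3 and 23.6 FPKM in neonatal and 4.44 and 2.65 FPKM in later cardiomyocytes, and fell by 2.29 on the log2 scale (SE 0.23, adjusted p = 9.51e-05). In the fibroblasts it was at 26.7, 25.1, 30.4 and 22.5 FPKM from PN1-3 to PN60, with overlapping groups. These levels leave out transcripts of the deposited status LOWDATA, which held most of the Trp53 level in the cells: before scaling, the PN1-2 cardiomyocytes were at 21.3 FPKM without them and at 92.4 FPKM with them. For Myc the same library was at 90.6 FPKM without and 130.0 FPKM with such transcripts. Myc was at 77.9 and 80.1 FPKM in neonatal and 1.77 and 3.28 FPKM in later cardiomyocytes, and at 165, 131, 246 and 284 FPKM from the PN1-3 to the PN60 fibroblasts. Its changes were -4.54 (SE 0.22, adjusted p = 5.6e-06) in cardiomyocytes and 0.84 (SE 0.22, adjusted p = 0.0174) in fibroblasts. In ventricles Myc went from 2.45 FPKM at E17 to 0.388 FPKM at PN90. Mdm2, the ubiquitin ligase that removes p53, was at 38.5 and 43.0 FPKM in neonatal and 28.2 and 27.2 FPKM in later cardiomyocytes, and rose in fibroblasts by 1.19 (SE 0.21, adjusted p = 0.00346). In ventricles Mdm2 was high at every age, from 26.2 FPKM at E17 to 54.7 FPKM at PN90, unlike Cdkn1a.

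The inhibitor p27 had a flatter course. Cdkn1b (ENSMUSG00000003031, mm9 chromosome 6, 134870419 to 134875531) stood at 23.8 and 24.6 FPKM in neonatal and 15.9 and 19.0 FPKM in later cardiomyocytes. It stood at 28.4 and 27.3 FPKM in neonatal and 12.0 and 18.1 FPKM in later fibroblasts. Later libraries were below neonatal ones in both cell types, with no overlap. The fall in fibroblasts was called (log2 change -0.87, SE 0.19, adjusted p = 0.00939, 1.85-fold), and was missed without the PN1-3 library (adjusted p = 0.0527). The cardiomyocyte change of -0.45 (SE 0.19) had an adjusted p of 0.0686, which was 0.0082 with the FPKM as deposited. Ventricle levels were 22.3, 24.4, 18.6, 18.1 and 16.9 FPKM, with a slope of -0.12 per stage (SE 0.05, adjusted p = 0.108). Among the 13 libraries Cdkn1b varied between 12.0 and 28.4 FPKM, against 0.499 and 345 FPKM for Cdkn1a.

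**Figure D2:**
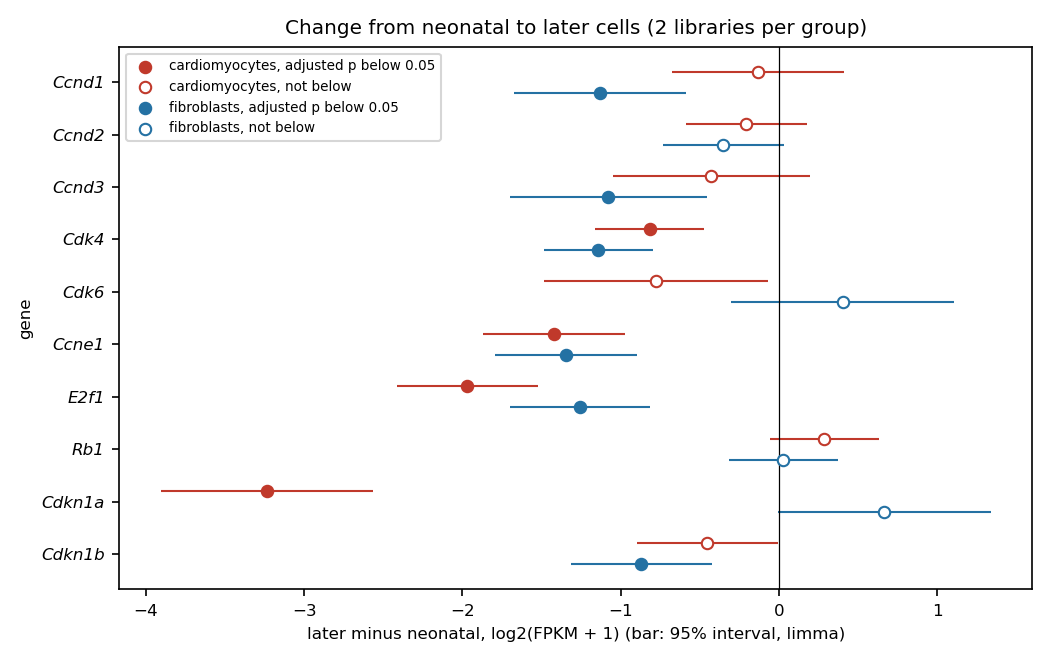
Change from neonatal to later cells for each gene, as the difference of log2(FPKM + 1) with its 95% interval from limma, in red for cardiomyocytes and blue for fibroblasts (2 libraries per group). Filled points passed an adjusted p of 0.05; Cdkn1a lies at -3.24 in cardiomyocytes and at 0.67 in fibroblasts, and no filled point lies above 0.

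From neonatal to later cells, 4 of the 10 genes fell in cardiomyocytes (Cdkn1a, E2f1, Ccne1 and Cdk4) and none rose, where 67% of all 12076 genes tested were called, 29.8% lower and 37.2% higher. In fibroblasts 6 fell (Cdk4, Ccne1, E2f1, Ccnd1, Cdkn1b and Ccnd3) and none rose, where 40.5% of all genes were called, 20.8% lower and 19.7% higher. Both later cardiomyocyte libraries lay below both neonatal ones for 7 of the 10 genes, beside 40.8% of all genes, and above them for 1 (Rb1), beside 48.7%. In fibroblasts the later libraries lay below for 7 genes, beside 36.7% of all genes, and above for 1 (Cdkn1a), beside 32.7%. The median change of the 10 genes was -0.61 in cardiomyocytes and -0.97 in fibroblasts, beside 0.10 and -0.02 for all genes tested. The count in cardiomyocytes depended on scaling: with the FPKM as deposited, which moved the median of all genes to -0.19, 8 of the 10 were called lower, Ccnd2, Ccnd3, Cdk6 and Cdkn1b being added. That scaling moved the share of higher genes among those called from 55.6% to 40.9% in cardiomyocytes and from 48.7% to 24.0% in fibroblasts. The 2 changes differed at an adjusted p below 0.05 for 3 of the 10 genes, Cdkn1a, Ccnd1 and Cdk6, beside 58.6% of all genes (26.3% lower and 32.2% higher in cardiomyocytes).

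Among the D-type cyclins, a difference between the cell types in the change with age was called only for Ccnd1. This gene encodes cyclin D1 (ENSMUSG00000070348, mm9 chromosome 7, 152115836 to 152125774). It stood at 23.0 and 20.6 FPKM in neonatal and 26.1 and 15.0 FPKM in later cardiomyocytes, so that the groups overlapped. In fibroblasts it stood at 19.5 and 17.9 FPKM in the neonatal and 7.57 and 8.40 FPKM in the later libraries, without overlap. The fall in fibroblasts was 2.34-fold (log2 change -1.13, SE 0.23, adjusted p = 0.00699) and was called in all 20 alternatives. In cardiomyocytes the change was -0.13 (95% interval -0.67 to 0.41, adjusted p = 0.635). The difference between these changes was 1.00 (SE 0.33, adjusted p = 0.0322), and it missed the threshold in 8 of the alternatives, among them each neonatal library left out in turn (0.0631 to 0.101). In later cells Ccnd1 was 2.57-fold higher in cardiomyocytes than in fibroblasts (log2 difference 1.21, SE 0.23, adjusted p = 0.00173). In neonatal cells the difference was not called (log2 difference 0.21, SE 0.23, adjusted p = 0.497). The locus overlaps LTO1.

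Cyclin D2, encoded by Ccnd2 (ENSMUSG00000000184, mm9 chromosome 6, 127075797 to 127101066), leaned to the fibroblasts. It was at 19.6 and 17.4 FPKM in neonatal and 18.2 and 13.8 FPKM in later cardiomyocytes. It was at 28.3 and 25.3 FPKM in neonatal and 19.4 and 22.2 FPKM in later fibroblasts. Neither change with age was called (log2 change -0.21, adjusted p = 0.292 in cardiomyocytes, and -0.35, adjusted p = 0.125 in fibroblasts). In neonatal cells it was lower in cardiomyocytes by 0.51 on the log2 scale (SE 0.16, adjusted p = 0.0398), the one call among the 10 genes in that comparison, where 40.5% of all genes were called (21.5% higher and 19.1% lower in cardiomyocytes). That call was lost without any 1 of the 4 neonatal libraries (adjusted p from 0.087 to 0.192).

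Cyclin D3, encoded by Ccnd3 (ENSMUSG00000034165, mm9 chromosome 17, 47642000 to 47736632), was the most abundant D-type cyclin in every cardiomyocyte library. It was also the most abundant in both neonatal fibroblast libraries. It was at 38.2 and 34.3 FPKM in neonatal and 29.7 and 24.0 FPKM in later cardiomyocytes (log2 change -0.43, SE 0.27, adjusted p = 0.192). It was at 29.0 and 31.6 FPKM in neonatal and 9.88 and 19.1 FPKM in later fibroblasts, where the PN28 library was the lowest. The fall in fibroblasts was 2.09-fold (log2 change -1.08, SE 0.27, adjusted p = 0.0154). Without either neonatal fibroblast library its adjusted p was 0.0576 or 0.0874. The locus overlaps Bysl, and the strand setting of the quantification was not given in the sources used here.

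**Figure D3:**
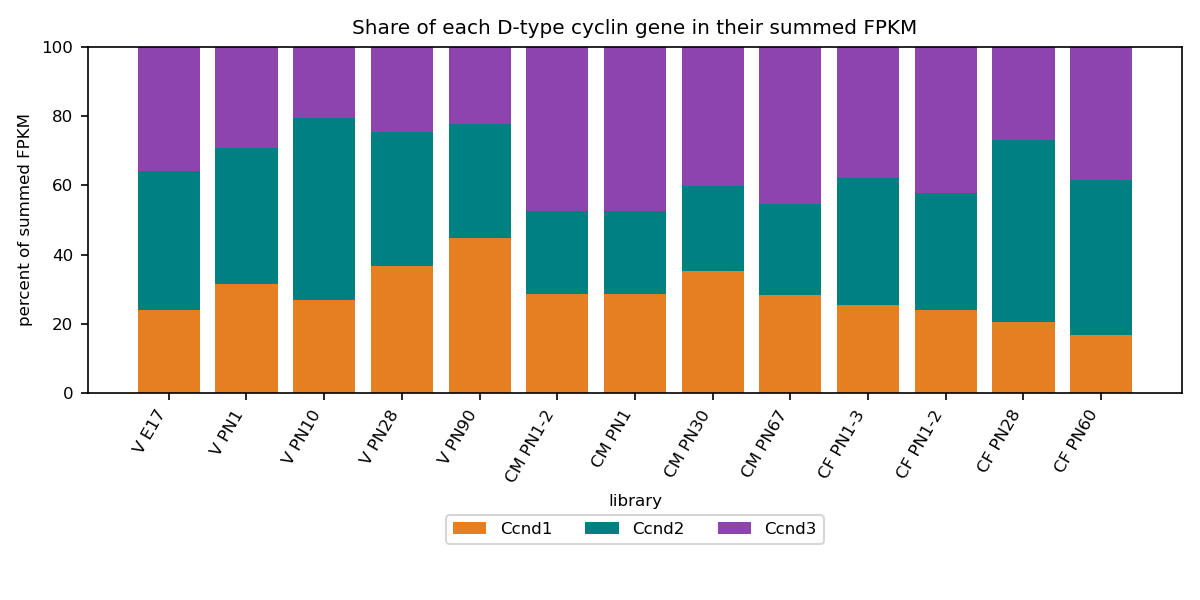
Share of Ccnd1, Ccnd2 and Ccnd3 in the sum of their scaled FPKM, in percent, as 1 stacked bar for each of the 13 libraries. Ccnd3 takes 40.1% to 47.4% in the 4 cardiomyocyte libraries, and in the ventricle the Ccnd1 share goes from 24.0% at E17 to 44.8% at PN90.

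The makeup of the D-type cyclin pool is shown as shares of their summed FPKM, a scale that does not depend on library scaling. Cyclin D3 took 47.4% ± 0.0888 (SD, n = 2) of the sum in neonatal and 42.8% ± 3.77 in later cardiomyocytes. In fibroblasts the share of cyclin D2 was 35.4% ± 2.17 in neonatal and 48.7% ± 5.66 in later libraries, and cyclin D1 went from 24.6% ± 1.01 to 18.7% ± 2.58. Cyclin D3 there went from 40.0% ± 3.17, the largest share in neonatal fibroblasts, to 32.6% ± 8.25. The summed level was 80.8, 72.4, 73.9 and 52.8 FPKM in the PN1-2, PN1, PN30 and PN67 cardiomyocytes. It was 76.8, 74.8, 36.9 and 49.8 FPKM in the PN1-3, PN1-2, PN28 and PN60 fibroblasts. With 2 libraries per group, no exact permutation test of these shares can reach a p of 0.05, and none was run.

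Cdk4, the main kinase partner of the D-type cyclins, had the highest summed FPKM of the set in the ventricle at E17 and PN1 and in both later cardiomyocyte libraries. Cdk4 (ENSMUSG00000006728, mm9 chromosome 10, 126500590 to 126504976) was at 120.2 and 114 FPKM in neonatal and 70.0 and 62.0 FPKM in later cardiomyocytes. It was at 132 and 142 FPKM in neonatal and 70.4 and 53.8 FPKM in later fibroblasts. The groups did not overlap in either cell type. It fell 1.77-fold in cardiomyocytes (log2 change -0.82, SE 0.15, adjusted p = 0.00178) and 2.21-fold in fibroblasts (log2 change -1.14, SE 0.15, adjusted p = 0.000959). The changes differed by 0.32 (95% interval -0.17 to 0.81, adjusted p = 0.217). Without the PN28 fibroblasts this difference was called, at 0.48 (adjusted p = 0.0361).

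The Cdk4 sum was made of different transcripts in the 2 kinds of library. The longest and main coding transcript, Cdk4-201 (2053 nt), carried 46.4% to 60.3% of the FPKM of the gene in ventricles, but 3.52% to 5.53% in cardiomyocytes and 3.66% to 3.96% in fibroblasts. In the cells, the 468 nt retained-intron transcript Cdk4-209 carried 27.3% to 30.4% and the 924 nt transcript Cdk4-208 carried 20.6% to 22.7%. FPKM divides by transcript length, so that short transcripts weigh heavily in the sum. Before scaling, Cdk4-201 itself was at 3.05 to 5.36 FPKM in the cardiomyocytes, so the high rank of Cdk4 there rests on the other transcripts. With the longest transcript alone, an alternative chosen after the data were seen, the cardiomyocyte change of Cdk4 was -0.21 (adjusted p = 0.238), and the difference from the fibroblast change was called, at 0.68 (adjusted p = 0.0267). In later cells Cdk4 was then called higher in cardiomyocytes, by 0.51 on the log2 scale (adjusted p = 0.0143). The locus overlaps Tspan31.

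**Figure D4:**
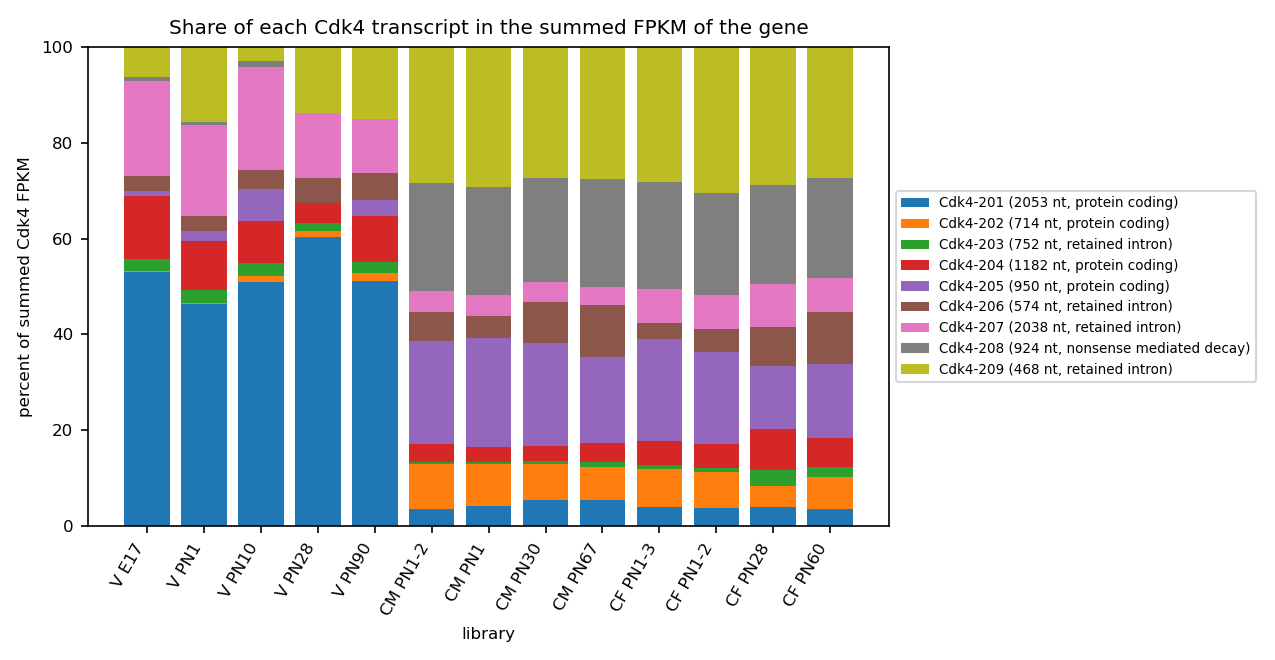
Share of each of the 9 annotated Cdk4 transcripts in the summed FPKM of the gene, in percent, as 1 stacked bar per library, with transcript length and type in the legend. Cdk4-201 makes up 46.4% or more of each ventricle bar and 5.53% or less of each cell bar.

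Cdk6, the second kinase of the D-type cyclins, was low throughout by the 1 transcript that was kept. Cdk6 (ENSMUSG00000040274, mm9 chromosome 5, 3343893 to 3523218) was at 2.70 and 3.25 FPKM in neonatal and 1.62 and 1.05 FPKM in later cardiomyocytes, without overlap. It was at 5.53 and 3.64 FPKM in neonatal and 8.87 and 4.36 FPKM in later fibroblasts, where the groups overlapped. The cardiomyocyte change was -0.78 (SE 0.30, adjusted p = 0.0524) and the fibroblast change 0.40 (SE 0.30, adjusted p = 0.322). The difference of -1.18 (SE 0.43) had an adjusted p of 0.0461, and missed the threshold in 9 of its alternatives, including 6 of the 8 that left out 1 library. In later cells Cdk6 was 4.97-fold higher in fibroblasts (log2 difference -1.65, SE 0.30, adjusted p = 0.00136). These values rest on Cdk6-202, since Cdk6-201 carried the status LOWDATA in every library. When Cdk6-201 was kept, the cardiomyocyte change was -0.91 (adjusted p = 0.0385). Before scaling, the PN28 fibroblasts were at 11.7 FPKM with it and at 7.71 FPKM without it.

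Cyclin E1 and E2F1, which act at the end of G1, were lower in later cells of both types. Ccne1 (ENSMUSG00000002068, mm9 chromosome 7, 38883003 to 38892553) was at 3.93 and 3.79 FPKM in neonatal and 0.953 and 0.681 FPKM in later cardiomyocytes. It was at 4.26 and 5.31 FPKM in neonatal and 0.908 and 1.69 FPKM in later fibroblasts. It fell 4.72-fold in cardiomyocytes (log2 change -1.42, SE 0.19, adjusted p = 0.000393) and 3.69-fold in fibroblasts (log2 change -1.35, SE 0.19, adjusted p = 0.00147). The changes differed by -0.08 (95% interval -0.71 to 0.56, adjusted p = 0.827).

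E2f1 (ENSMUSG00000027490, mm9 chromosome 2, 154385143 to 154395628) was at 6.28 and 5.96 FPKM in neonatal and 1.17 and 0.527 FPKM in later cardiomyocytes. It was at 5.78 and 6.25 FPKM in neonatal and 2.23 and 1.67 FPKM in later fibroblasts. In neonatal cells the cell types differed by 0.02 on the log2 scale (95% interval -0.42 to 0.47). The fall was 7.23-fold in cardiomyocytes (log2 change -1.97, SE 0.19, adjusted p = 7.47e-05) and 3.09-fold in fibroblasts (log2 change -1.26, SE 0.19, adjusted p = 0.00187). The difference of these falls, -0.71 (SE 0.27), had an adjusted p of 0.0533. In later cells E2f1 was 2.30-fold lower in cardiomyocytes (log2 difference -0.69, SE 0.19, adjusted p = 0.011), a call that was lost without the PN67 cardiomyocytes (adjusted p = 0.0803).

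Rb1, which encodes the retinoblastoma protein, moved little in the cells. Rb1 (ENSMUSG00000022105, mm9 chromosome 14, 73583480 to 73725629) was at 6.38 and 7.21 FPKM in neonatal and 8.19 and 8.82 FPKM in later cardiomyocytes (log2 change 0.29, SE 0.15, adjusted p = 0.118). It was at 5.01 and 4.93 FPKM in neonatal and 4.53 and 5.71 FPKM in later fibroblasts (log2 change 0.03, SE 0.15, adjusted p = 0.895). All 4 cardiomyocyte libraries were above all 4 fibroblast libraries. In later cells the difference was called, 1.66-fold higher in cardiomyocytes (log2 difference 0.64, SE 0.15, adjusted p = 0.00438). In neonatal cells it was 0.38 (SE 0.15), with an adjusted p of 0.0731. Its locus overlaps Lpar6 and Rcbtb2.

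Across the later cells, 6 of the 10 genes differed between cardiomyocytes and fibroblasts, where 77.7% of all genes were called, 38.4% higher and 39.3% lower in cardiomyocytes. Both cardiomyocyte libraries lay above both fibroblast ones for 3 genes, beside 42.8% of all genes, and below them for 4, beside 44.2%. In neonatal cells they lay above for 3 genes, beside 39.2% of all genes, and below for 6, beside 41.3%. Ccnd1, Ccnd3 and Rb1 were higher in cardiomyocytes, and Cdkn1a, Cdk6 and E2f1 were higher in fibroblasts. Ccnd3 was 1.85-fold higher in later cardiomyocytes (log2 difference 0.90, SE 0.27, adjusted p = 0.0151), a call lost without the PN30 cardiomyocytes (adjusted p = 0.0822). Cdkn1a had the widest difference, 19.0-fold higher in fibroblasts (log2 difference -4.26, SE 0.29). In neonatal cells Cdkn1a was at 159 ± 17.9 FPKM (SD, n = 2) in cardiomyocytes and at 213 and 194 FPKM in fibroblasts, a log2 difference of -0.35 with an adjusted p of 0.360. These comparisons share libraries with the changes over age.

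**Figure D5:**
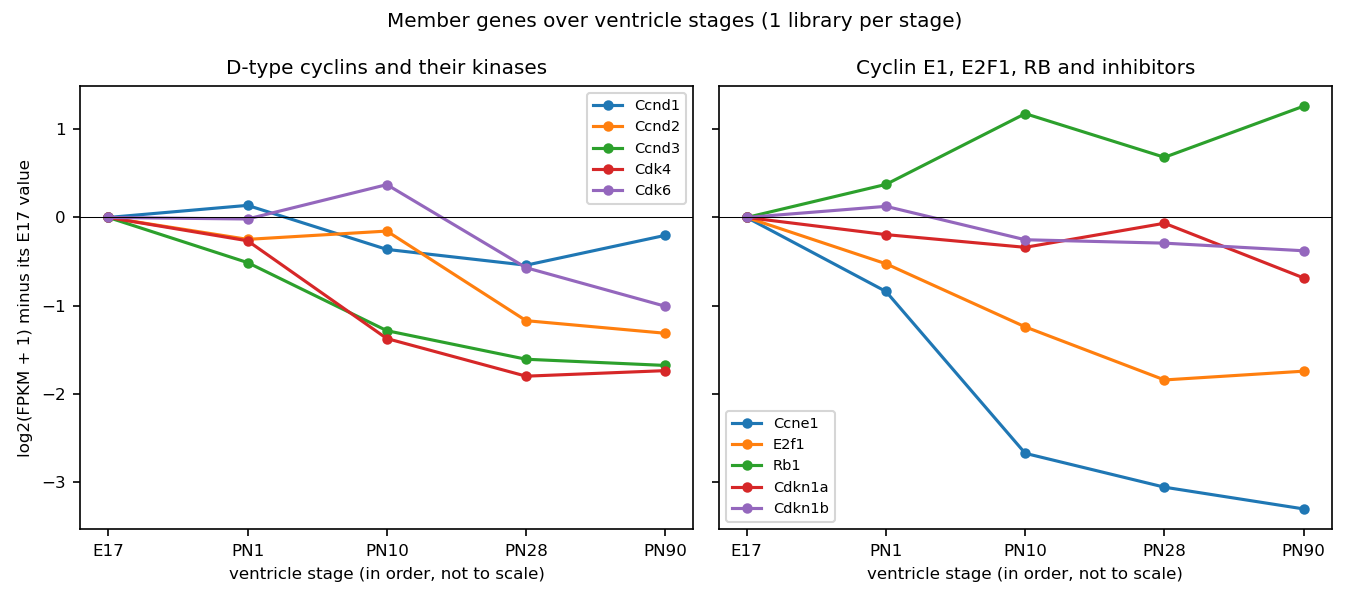
Course of the 10 genes over the 5 ventricle stages, as log2(FPKM + 1) minus the E17 value, with 1 library per stage and stages in order but not to scale. Ccne1 drops furthest, Ccnd3 and Cdk4 drop mostly up to PN10 and Ccnd2 after it, and Rb1 lies above its E17 level at all later stages.

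In the whole ventricle, where each age is 1 library, the slope over the 5 ordered stages was called for 6 of the 10 genes, 5 lower and 1 higher, beside 34.9% of all 11621 genes (14.6% lower and 20.4% higher). With the FPKM as deposited, the share of higher genes among those called went from 58.3% to 27.0%, and Rb1 was not called (adjusted p = 0.143). Ccne1 stood at 15.0, 7.96, 1.51, 0.923 and 0.620 FPKM from E17 to PN90, and fell by 0.88 per stage on the log2 scale (SE 0.12, adjusted p = 0.00555). E2f1 stood at 2.87, 1.69, 0.638, 0.0789 and 0.156 FPKM (slope -0.48, SE 0.08, adjusted p = 0.00698). Both were highest at E17 and below 1 FPKM from PN28. The 608 nt transcript Ccne1-204 carried 17.9% to 59.2% of the Ccne1 level in ventricles, and at most 10.4% in cardiomyocytes and 23.2% in fibroblasts. The highest share was that of E17, where Ccne1-204 held 10.7 of 18.0 FPKM before scaling, so the E17 level of Ccne1 rests largely on it.

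Cdk4 stood at 43.1, 35.8, 16.0, 11.7 and 12.2 FPKM in the ventricle (slope -0.50, SE 0.09, adjusted p = 0.00885). Ccnd3 stood at 25.5, 17.6, 9.86, 7.68 and 7.26 FPKM (slope -0.45, SE 0.07, adjusted p = 0.00622). Ccnd2 stood at 28.4, 23.8, 25.4, 12.1 and 10.8 FPKM (slope -0.35, SE 0.08, adjusted p = 0.0164). The largest single step of Cdk4 and of Ccnd3 lay between PN1 and PN10 (-1.11 and -0.77), while that of Ccnd2 lay between PN10 and PN28 (-1.02). Ccnd1 stood at 17.1, 18.9, 13.1, 11.4 and 14.7 FPKM and had no called slope (-0.11, SE 0.07, adjusted p = 0.255). The summed D-type cyclin level went from 71.0 FPKM at E17 to 32.8 FPKM at PN90. Ccnd2 held the largest part from E17 (40.1%) to PN28 (38.7%, against 36.6% for Ccnd1). Only in the single PN90 library was the largest part that of Ccnd1 (44.8%).

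Cdk6 in the ventricle stood at 2.84, 2.80, 3.97, 1.59 and 0.911 FPKM (slope -0.26, SE 0.10, adjusted p = 0.0972). With Cdk6-201 kept, and before scaling, it stood at 8.13, 7.91, 9.96, 3.74 and 2.46 FPKM. Rb1 stood at 7.57, 10.1, 18.4, 12.8 and 19.6 FPKM and rose by 0.28 per stage (SE 0.08, adjusted p = 0.0449). At PN90 its summed FPKM was the highest of the 10 genes, where that of Cdk4 had been at E17. The Rb1 rise missed the threshold in 9 of its alternatives, and the transcript Rb1-203 (324 nt, of the nonsense-mediated decay type) carried between 0.0206% and 49.5% of the ventricle level of the gene. The highest share was that of PN90, where Rb1-203 held 8.36 of 16.9 FPKM before scaling, so the PN90 rank of Rb1 rests on it. The coding transcript Rb1-201 lay between 5.29 and 8.07 FPKM in the ventricles before scaling. The Rb1 rise was still called with coding transcripts alone and with the longest transcript alone, alternatives chosen after the data were seen. Without the E17 library none of the slopes was called: the adjusted p was 0.0508 for Ccne1, 0.0579 for Ccnd3, 0.064 for Ccnd2, 0.0684 for Cdk4 and 0.287 for Rb1, and E2f1 fell below the level needed for a test. Summed erythroid markers were 4775 FPKM at E17 and 181 to 233 FPKM at the other ages, with none of 4 markers called. Macrophage and leukocyte markers summed to 28.5, 32.3, 56.1, 188 and 143 FPKM from E17 to PN90, and 9 of 9 tested rose. Mesothelial markers summed to 50.6, 10.7, 4.94, 2.59 and 2.84 FPKM, and 6 of 6 fell. Cardiomyocyte markers summed to 13620 FPKM at E17 and 36051 FPKM at PN90, and 4 of 8 rose. The part of these sums in the slopes was not tested.

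The genes downstream of E2F went the same way as Ccne1 and E2f1. The counts of called genes here and in the lists that follow stand beside the shares of all genes, 29.8% lower and 37.2% higher in cardiomyocytes, 20.8% and 19.7% in fibroblasts, and 14.6% and 20.4% in the ventricle. Of 23 S-phase genes tested, 22 fell and none rose in cardiomyocytes, with a median change of -1.43, and 21 fell in fibroblasts, with a median of -1.46. In the ventricle all 23 fell over the stages. Rrm2, a subunit of ribonucleotide reductase, fell by 2.82 in cardiomyocytes (SE 0.18, adjusted p = 1.37e-05) and fell by 2.64 in fibroblasts (SE 0.18, adjusted p = 5.75e-05). Of 23 genes of G2 and M phase, 22 fell in cardiomyocytes, 23 in fibroblasts and 22 in the ventricle. Mki67, the proliferation marker Ki-67, was at 12.6 and 15.1 FPKM in neonatal and 2.01 and 0.695 FPKM in later cardiomyocytes, and at 59.7, 37.8, 20.3, 2.68 and 2.56 FPKM over the ventricle stages.

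Of 11 other G1 and S phase cyclins and kinases, 3 rose and 5 fell in cardiomyocytes (median -0.30), and 1 rose and 4 fell in fibroblasts (median -0.32). The shares of rising genes were below the 37.2% and 19.7% of all genes. Cdk2, the partner of cyclin E, fell by 1.53 in cardiomyocytes (SE 0.20, adjusted p = 0.000335) and by 1.78 in fibroblasts (SE 0.20, adjusted p = 0.000487). Ccng1, which encodes cyclin G1, a p53 target, went the other way. It was at 42.0 and 34.4 FPKM in neonatal and 304 and 300.3 FPKM in later cardiomyocytes, and between 10.9 and 12.7 FPKM in all 4 fibroblast libraries. The changes of Ccng1 differed between the cell types by 3.05 (SE 0.20, adjusted p = 2.21e-05).

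Of 5 other CDK inhibitors, 2 fell in cardiomyocytes (Cdkn3 and Cdkn2b) and 4 fell in fibroblasts, and none rose in either. Cdkn1c, which encodes p57, the third member of the p21 and p27 family, was at 32.4 and 37.4 FPKM in neonatal and 8.52 and 11.1 FPKM in later fibroblasts (log2 change -1.74, SE 0.18, adjusted p = 0.000319). In cardiomyocytes it was at 16.8 and 14.5 FPKM in neonatal and 11.7 and 14.8 FPKM in later libraries, where the groups overlapped. In the ventricle Cdkn1c was at 65.1 FPKM at E17 and between 11.3 and 16.7 FPKM at the 4 later ages. Its change differed between the cell types by 1.50 (SE 0.25, adjusted p = 0.00177).

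Among 9 pocket proteins, E2F and DP factors tested, 3 rose and 4 fell in cardiomyocytes, where the rising share was close to the 37.2% of all genes, and 1 rose and 4 fell in fibroblasts. The repressors E2f7 and E2f8 fell in both, with changes of -2.03 and -1.57 in cardiomyocytes (adjusted p = 2.44e-05 and 3.65e-05) and of -2.22 and -1.88 in fibroblasts (adjusted p = 5.6e-05 and 5.65e-05). Rbl2, which encodes the RB relative p130 found in quiescent cells, rose in cardiomyocytes by 1.56 (SE 0.21, adjusted p = 0.000393), and its change differed from that in fibroblasts by 1.34 (SE 0.30, adjusted p = 0.00649). Of 13 genes for the turnover of cyclins and inhibitors, 3 rose and 6 fell in cardiomyocytes. Cks1b, a cofactor in p27 degradation, fell by 2.61 in cardiomyocytes (SE 0.14, adjusted p = 7.42e-06) and by 2.08 in fibroblasts (SE 0.14, adjusted p = 5.17e-05).

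Of 16 genes in the list of p53 and its targets, which does not hold Cdkn1a, 11 fell and 2 rose in cardiomyocytes (median -1.28), against 2 and 2 in fibroblasts (median -0.13). The changes differed between the cell types for 14 of the 16, 12 of them lower in cardiomyocytes, beside 58.6% of all genes differing and 26.3% lower. Sesn2, a stress-induced sestrin, fell by 2.41 in cardiomyocytes (SE 0.18, adjusted p = 2.55e-05). Sesn1, of the same family, was at 11.3 and 10.5 FPKM in neonatal and 71.0 and 95.3 FPKM in later cardiomyocytes. Gadd45a, a growth arrest gene, was at 27.7 and 29.2 FPKM in neonatal and 12.4 and 12.7 FPKM in later cardiomyocytes, and rose in fibroblasts by 0.99 (SE 0.17, adjusted p = 0.00288). In the ventricle, 11 of these genes were tested, and 2 rose and 2 fell, shares near the 20.4% and 14.6% of all genes.

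Upstream of G1, 2 of 15 regulators rose and 6 fell in cardiomyocytes, and 3 rose and 2 fell in fibroblasts. The fibroblast shares were near those of all genes, 19.7% higher and 20.8% lower. Meis1, a homeobox factor known to restrain cardiomyocyte division, was at 7.63 and 6.18 FPKM in neonatal and 13.7 and 9.50 FPKM in later cardiomyocytes (log2 change 0.66, SE 0.30, adjusted p = 0.0869). In the ventricle Meis1 was at 21.7, 24.2, 17.6, 17.0 and 15.9 FPKM. Of 6 genes of the DREAM and MuvB complex, which represses cell cycle genes in quiescence, 3 fell and 2 rose in cardiomyocytes. Foxm1, a mitotic factor in that list, fell by 2.26 in cardiomyocytes (SE 0.19, adjusted p = 4.35e-05) and by 1.53 in fibroblasts (SE 0.19, adjusted p = 0.000846).

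Over the 8 cell libraries, the genes most like 4 of the members were sought among 8231 genes by Pearson's r of log2(FPKM + 1). For Cdkn1a they were Myc (r = 0.994), Gm15886 (0.994) and Med13l (0.992). For Cdk4 they were Pclaf, a PCNA-binding protein (0.985), Usp1 (0.983) and 1500011B03Rik (0.983). For Ccnd1 they were 2310022B05Rik (0.973), Ncapd2 (0.966) and Tmem98 (0.964), and for Ccnd2 they were Spon2 (0.964), Col1a1 (0.964) and Creld2 (0.962). These coefficients describe 8 libraries from 4 groups, which share cell type and age, and carry no test.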

How the data were processed

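The authors deposited 1 table of transcript FPKM per library, made with TopHat2 2.0.5 and Cufflinks 2.1.1 on mm9 per the submitters' processing notes; the annotation release was not given in the sources used here. Of 94696 transcripts, 87% matched a GENCODE M21 name, used for names only. Gene FPKM is the sum over matched transcripts of at least 200 nt. Transcripts of status LOWDATA were left out, as were genes with a failed (FAIL or HIDATA) transcript (90 in cells, 64 in ventricles). The tables hold no read totals, so depth is unknown; the deposited coverage signal stood at 19.5 to 32.8 per FPKM. The deposited Cufflinks bounds were not used, since 65 of 433 member values lay outside their own interval. FPKM were scaled by median ratios (factors 0.869 to 1.16 in cells, 0.862 to 1.20 in ventricles).

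Genes with a mean of at least 1 FPKM were tested with limma 3.58.1 (R 4.3.3) on log2(FPKM + 1), with 4 residual degrees of freedom for cells and 3 for the ventricle slope, after tests on simulated data. All 10 members were tested. Named genes were the members, up to 4 called genes of smallest adjusted p per list and comparison, and Meis1, Myc, Trp53, Mdm2, Cdkn1c and Mki67; Fos, Jun and other genes given outside these were chosen after their values were seen. The members and lists were chosen with earlier results of these data known. Protein sequences were not used here.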

Additional observations from a re-analysis of the deposited data

Results flagged for a closer look

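For 3 of the 10 genes the change from neonatal to later cells differed between cardiomyocytes and fibroblasts by a test of the difference itself. This share lay below the 58.6% of all genes called in that test. For Cdkn1a the difference was -3.90 on the log2 scale (SE 0.41, adjusted p = 0.000182), with both later cardiomyocyte libraries below and both later fibroblast libraries above their neonatal counterparts. For Cdk6 it was -1.18 (SE 0.43, adjusted p = 0.0461), with lower values in both later cardiomyocyte libraries and overlapping fibroblast groups. That difference missed the threshold in 9 of 18 alternatives. For Ccnd1 the difference was 1.00 (SE 0.33, adjusted p = 0.0322), with overlapping cardiomyocyte groups and lower values in both later fibroblast libraries. It missed the threshold in 8 of 19 alternatives.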

How the results depend on the processing

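Depth is unknown, each ventricle age is 1 library and each cell group 2, so single libraries decide many calls. No paired analysis was possible because the labels do not say which libraries, if any, came from the same animals. The falls of Cdkn1a, Ccne1 and E2f1 in cardiomyocytes and of Ccne1 and E2f1 in fibroblasts were called in every alternative in which they could be tested. The count of members called in cardiomyocytes (4) was 8 with FPKM as deposited, 8 with mitochondrially encoded genes removed and equal sums, 2 with a mean of at least 5 FPKM (fewer genes tested), and 7 with the 4 cardiomyocyte libraries alone. The count for the difference of changes (3) was 1 without a filter and 5 with the longest transcript alone. For neonatal cells (1) it was 0 without a filter, 2 with coding transcripts alone and 2 with the longest transcript alone, where E2f1 turned from 0.02 to -0.38 (adjusted p = 0.0405). Removing mitochondrially encoded genes together with scaling to equal sums moved the share of higher genes among those called to 36.5% in cardiomyocytes, 24.0% in fibroblasts, 30.5% in the ventricle and 40.6% in neonatal cells. With the 4 fibroblast libraries alone 3091 genes were called in fibroblasts against 4888. Unless the setting itself leaves out genes or libraries, the cause was not tested. Leaving out 1 library gave 4 to 7 members in cardiomyocytes, 1 to 6 for the difference, 0 to 2 in neonatal cells and 0 to 7 in the ventricle (against 6). It gave 2747 (without the PN1-2 fibroblasts) to 6186 genes in all in fibroblasts, 2607 to 6467 in neonatal cells, and 1233 (without E17) to 4492 in the ventricle, against 4888, 4894 and 4060.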
